A study of Mus musculus with 284 samples.

Results

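Matricellular and invasion genes encode secreted proteins that bind matrix and cell receptors without forming the main scaffold of a tissue, together with enzymes and filaments of cells that move through matrix. The 9 genes described here, of 54247 rows in the count table, were Tnc, Crispld2, Postn, Thbs1, Sparc, Fbln1, Fn1, Mmp14 and Vim. They were chosen by earlier results on these same cells, that is, by their differences between the genotypes, their shares of cells and the concentration of their counts. Levels and genotype differences of the 9 are therefore given as a description, with no test.

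The cells were 284 tumour propagating cells of mouse skin tumours, the tumour cells that can start a new tumour. They came from 2 mice labelled Sirt6-/- (KO1 with 73 cells and KO3 with 54) and 2 labelled wild type (WT1 with 69 cells and WT2 with 88). All 4 mice were C57BL/6 animals that received the carcinogen DMBA once at 8 weeks of age and then TPA, a tumour promoter, over a span above 20 weeks. All carried Keratin14-Cre and ROSA26-LSL-eYFP, so that YFP marks keratin 14-expressing epithelium and its progeny. Live YFP-positive cells with the surface proteins CD34 and CD49f were sorted singly into plates and sequenced from polyadenylated RNA with a modified Smart-seq2 protocol. SIRT6 is a chromatin-bound deacetylase.

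In normal skin, tenascin C, periostin and SPARC are found around hair follicles, in wounds and in tumour stroma, where fibroblasts make much of them, and carcinoma cells can make them too. Tenascin C, thrombospondin 1 and periostin bind integrins and other receptors and can loosen the grip of a cell on its matrix. MMP14 is a protease anchored in the cell membrane that cuts collagen and activates the secreted protease MMP2. Fibronectin and vimentin are classical markers of a mesenchymal state in epithelial cells.

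The total count per cell lay between 523999 and 1684464, and the summed counts were 81715648 for KO1 and 66335552 for KO3, against 77125493 for WT1 and 92622682 for WT2. The median cell had 6367 and 6614.5 detected genes in KO1 and KO3, and 7009 and 5783.5 in WT1 and WT2. No plate held both genotypes (65 cells of KO1 on plate 1, 8 cells of KO1 and all of KO3 on plate 2, all of WT1 and 7 cells of WT2 on plate 3, 81 cells of WT2 on plate 4), so plate and genotype cannot be told apart. Sirt6 had 27.0 and 14.5 CPM (counts per 1000000 counts of the mouse) in KO1 and KO3, against 16.7 and 25.2 CPM in WT1 and WT2. The groups overlapped, and since the labels do not give the deleted stretch, the level does not check the genotype labels. Summed levels of 10 keratinocyte markers were 28300 and 31970 CPM in KO1 and KO3 and 32990 and 41540 CPM in WT1 and WT2, and every cell had counts for at least 3 of them. Of 18 fibroblast markers, 7 (Col1a2, Dcn, Lum, Pdgfrb, Dpt, Mfap5 and Lox) were at 0 in every mouse. The fibroblast list summed to 21.6 and 22.1 CPM in KO1 and KO3, and to 75.0 and 22.7 CPM in WT1 and WT2. Acta2, which some epithelial cells also express, made up 20.8 and 20.3 CPM of it in KO1 and KO3, and 29.8 and 21.6 CPM in WT1 and WT2.

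The promoters of 4 of the genes are printed here because these are the genes whose mice did not overlap between the genotypes by any of the 5 measures of level tried. Each runs from 250 bases before the annotated start to 50 after it, 5′ to 3′ on the strand of the gene, as listed by RefSeq on GRCm38.p6. Capitals mark matches, on either strand, to 5 short motifs. The letters searched for the TATA box were TATAAA, those for the AP-1 factors were TGANTCA, and those for the TEAD factors were GGAATG. The SMAD motif was searched as CAGAC, and the GC box as GGGCGG. The table held promoters of 7 of the 9 genes, and where it lists 2 starts (Tnc and Postn), the one nearest the start of the annotated gene is printed.
Tnc, chr4:64046966-64047265, minus strand: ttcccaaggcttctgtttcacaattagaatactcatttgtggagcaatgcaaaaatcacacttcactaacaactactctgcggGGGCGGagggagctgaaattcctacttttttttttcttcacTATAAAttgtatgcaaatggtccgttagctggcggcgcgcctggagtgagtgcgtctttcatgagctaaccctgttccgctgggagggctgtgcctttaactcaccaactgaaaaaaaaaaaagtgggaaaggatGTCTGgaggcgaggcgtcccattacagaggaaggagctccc
Crispld2, chr8:119992188-119992487, plus strand: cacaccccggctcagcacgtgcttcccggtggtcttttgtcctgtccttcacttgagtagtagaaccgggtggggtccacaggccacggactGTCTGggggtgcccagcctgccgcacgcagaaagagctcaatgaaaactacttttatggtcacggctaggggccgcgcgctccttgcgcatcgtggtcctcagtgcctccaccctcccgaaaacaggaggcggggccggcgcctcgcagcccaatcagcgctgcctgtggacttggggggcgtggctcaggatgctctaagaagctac
Postn, chr3:54360857-54361156, plus strand: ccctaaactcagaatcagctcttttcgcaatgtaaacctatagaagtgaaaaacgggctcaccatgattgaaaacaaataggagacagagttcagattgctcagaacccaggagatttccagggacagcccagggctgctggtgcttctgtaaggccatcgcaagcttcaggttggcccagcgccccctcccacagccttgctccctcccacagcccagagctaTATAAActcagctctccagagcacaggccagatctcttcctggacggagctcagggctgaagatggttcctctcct
Mmp14, chr14:54431348-54431647, plus strand: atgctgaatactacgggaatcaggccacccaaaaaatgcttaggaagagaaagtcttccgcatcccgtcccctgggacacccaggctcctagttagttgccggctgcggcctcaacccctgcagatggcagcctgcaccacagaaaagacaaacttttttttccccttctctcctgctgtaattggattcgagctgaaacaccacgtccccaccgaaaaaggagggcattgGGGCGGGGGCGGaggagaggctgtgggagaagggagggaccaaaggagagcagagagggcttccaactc
These are matches of letters, and whether any of them works as a site was not tested. The Tnc promoter held 1 match to the TATA box letters, 1 SMAD motif and 1 GC box, and that of Crispld2 1 SMAD motif. The Postn promoter held 1 TATA box, and that of Mmp14 2 GC boxes next to each other. At its other listed start Tnc had 1 TATA box match (at base 46), 2 SMAD motifs and 1 GC box, and Postn had no TATA box match and 1 SMAD motif. Of all 32851 promoters listed, 13.6% held the TATA box, 49.6% the SMAD motif, 35.7% the GC box, 7.81% the AP-1 motif and 14.7% the TEAD motif. None of the 10 promoters listed for the 7 genes held the AP-1 or the TEAD motif, which says only that these letters are not in these windows. GC content was 47.3% for Tnc, 63.0% for Crispld2, 53.0% for Postn and 56.0% for Mmp14.

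Per length, the genes fell into an order that spans several powers of 10. The mean over the 4 mice, as CPM per kilobase of annotated exon, was 128 for Thbs1, 42.7 for Fbln1, 20.3 for Sparc and 17.5 for Tnc. It was 8.51 for Mmp14, 7.96 for Crispld2, 6.51 for Postn, 1.03 for Vim and 0.00838 for Fn1. Ranges over mice of neighbours in this order overlapped throughout: Thbs1 lay between 34.2 and 307 CPM per kilobase and Fbln1 between 28.3 and 48.1, for example. The share of all cells with a count gave another order, with Fbln1 in 80.3% of the cells, Thbs1 in 60.6%, Mmp14 in 57.0%, Tnc in 53.2%, Sparc in 44.7% and Crispld2 in 20.4%. Vim was found in 3.52% of the cells, Postn in 2.82% and Fn1 in 0.704%.

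**Figure D1:**
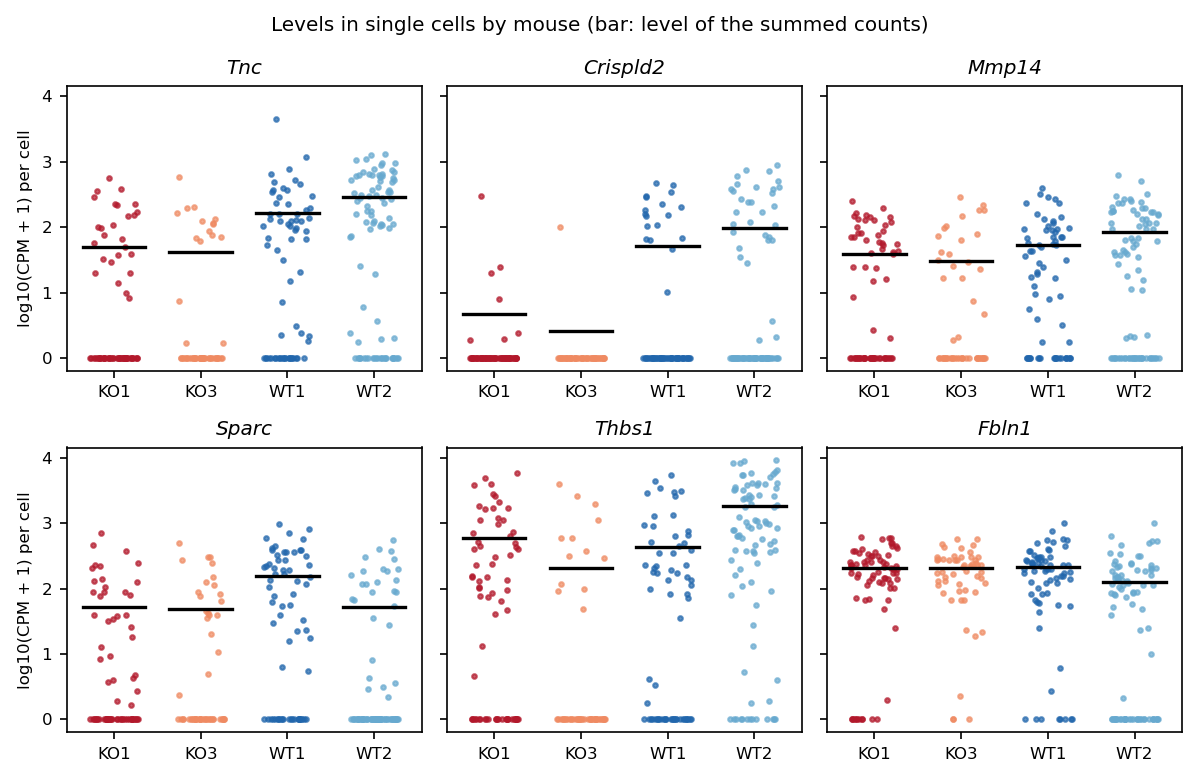
Level of 6 genes in each of the 284 cells, by mouse (KO1 and KO3 labelled Sirt6-/-, WT1 and WT2 wild type), as log10(CPM + 1). Each point is a cell, and the bar is the level of the summed counts of the mouse. Tnc and Crispld2 have their bars lower in KO1 and KO3 than in WT1 and WT2, Fbln1 has few cells at 0 except in WT2, and Thbs1 ranges up to 9128 CPM in a cell.

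Tnc, which encodes tenascin C (ENSMUSG00000028364.15, chromosome 4, 63959785 to 64047015 on GRCm38, minus strand), had 48.0 and 40.8 CPM in KO1 and KO3, against 166 and 288 CPM in WT1 and WT2. Both mice labelled Sirt6-/- lay below both wild-type mice, with means of 44.4 ± 5.07 CPM and 226.9 ± 86.6 CPM (SD, n = 2 mice each). The log2 difference was -2.40 (SE 0.37). Fewer cells had the transcript: 35.6% of KO1 (95% exact binomial interval 24.8% to 47.7%) and 29.6% of KO3 (18.0% to 43.6%), against 66.7% of WT1 (54.3% to 77.6%) and 71.6% of WT2 (61.0% to 80.7%). Cells with a count also had less of it, with medians of 86.6 and 97.3 CPM in KO1 and KO3 and 127 and 308.5 CPM in WT1 and WT2. The few cells on a second plate stayed on the side of their mouse, with 68.8 CPM in the 8 cells of KO1 on plate 2 and 310 CPM in the 7 cells of WT2 on plate 3. One cell of WT1 reached 4498 CPM and held 18.7% of the Tnc counts of that mouse. The binomial intervals cover the sampling of cells within a mouse and not the spread between mice. Reads were counted without molecular identifiers.

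Crispld2, which encodes a secreted glycoprotein of the cysteine-rich secretory protein family (ENSMUSG00000031825.16, chromosome 8, 119992438 to 120052793, plus strand), had 3.76 and 1.55 CPM in KO1 and KO3, against 49.8 and 96.9 CPM in WT1 and WT2. The groups did not overlap, and the log2 difference was -4.84 (SE 0.67). The transcript was found in 7 cells of KO1 and 1 of KO3, against 18 cells of WT1 and 32 of WT2. In KO1, 82.4% of the counts lay in 1 cell, which sat on plate 2, and the 65 cells of plate 1 had 0.746 CPM. Leaving out the highest cell of each mouse moved the log2 difference to -7.62. In the wild-type mice the counts were spread, with the highest cell holding 15.1% in WT1 and 11.4% in WT2.

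Mmp14, the membrane-anchored collagenase (ENSMUSG00000000957.11, chromosome 14, 54431612 to 54445364, plus strand), had 38.6 and 29.4 CPM in KO1 and KO3 and 52.2 and 82.7 CPM in WT1 and WT2. The groups did not overlap, with a log2 difference of -1.04 (SE 0.35), which was -0.61 without WT2. Its share of cells was 50.7% and 40.7% in KO1 and KO3, against 68.1% and 63.6% in WT1 and WT2. The median level in cells with a count was 69.5 and 39.1 CPM in KO1 and KO3 and 57.1 and 107 CPM in WT1 and WT2, so the median of KO1 lay above that of WT1.

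Sparc, a collagen-binding matricellular gene also called osteonectin (ENSMUSG00000018593.13, chromosome 11, 55394500 to 55423183, minus strand), had 50.9 and 47.1 CPM in KO1 and KO3 and 158 and 51.2 CPM in WT1 and WT2. WT1 stood alone, and WT2 was barely above KO1. With the mean of the CPM of single cells in place of the summed level, WT2 had 44.1 CPM, below the 49.9 and 47.2 CPM of KO1 and KO3. The log2 difference of -1.11 (SE 0.54) shrank to -0.14 without WT1. The share of cells was 45.2% and 38.9% in KO1 and KO3, against 65.2% in WT1 and 31.8% in WT2. None of the 7 cells of WT2 on plate 3 had a Sparc count.

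Thbs1, which encodes thrombospondin 1, a trimeric glycoprotein that binds CD47 and CD36 and can activate latent TGF-beta (ENSMUSG00000040152.8, chromosome 2, 118111876 to 118127133, plus strand), had 589 and 207.5 CPM in KO1 and KO3 and 439 and 1867 CPM in WT1 and WT2. The groups overlapped, with KO1 above WT1. The log2 difference of -1.61 (SE 0.89) was -0.14 without WT2. The transcript was found in 60.3% and 24.1% of the cells of KO1 and KO3, against 58.0% and 85.2% in WT1 and WT2. Cells of KO3 with a count had a median of 381 CPM, close to the 419 CPM of KO1 and above the 290 CPM of WT1, so KO3 was low in the number of such cells. WT2 was high in both, with a median of 1040 CPM. Plates of 1 mouse differed as well: KO1 had 1400 CPM in its 8 cells on plate 2 and 484 CPM on plate 1, and WT2 had 718 CPM in its 7 cells on plate 3 and 1970 CPM on plate 4.

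Fbln1, which encodes fibulin 1, a calcium-binding protein of basement membranes and elastic fibres (ENSMUSG00000006369.14, chromosome 15, 85205949 to 85286535, plus strand), was the most evenly spread. It had 206 CPM in KO1 and in KO3, against 210 and 124 CPM in WT1 and WT2. The share of cells was 84.9% and 94.4% in KO1 and KO3 and 88.4% and 61.4% in WT1 and WT2, so that 3 mice lay together and WT2 lay below them. The log2 difference was 0.28 (SE 0.29), and -0.018 without WT2.

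**Figure D2:**
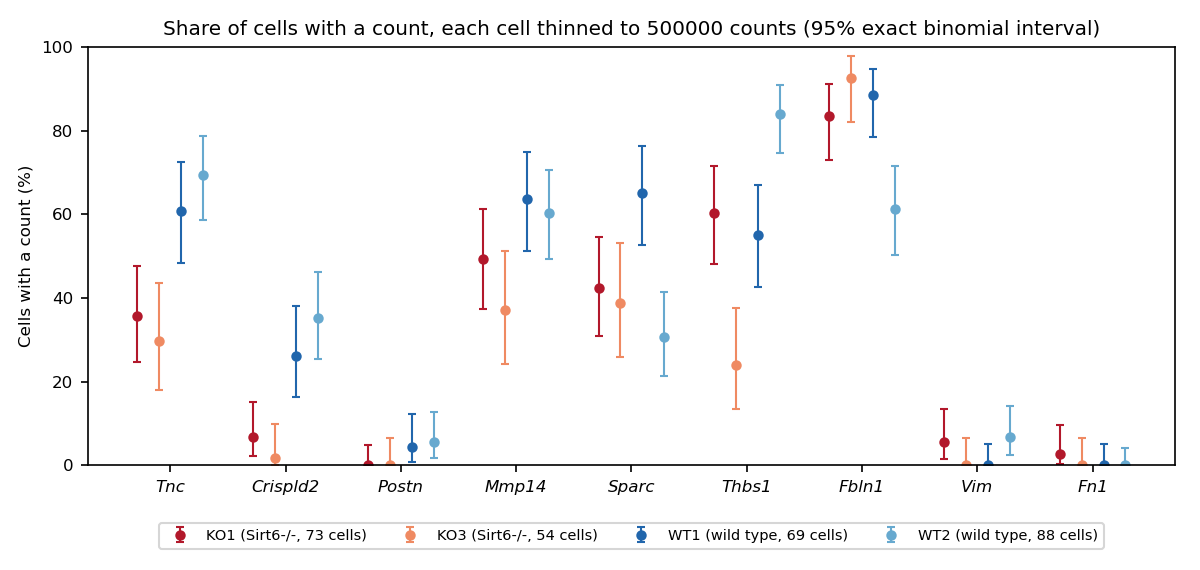
Share of cells with a count for each gene and mouse after each cell was thinned to 500000 counts, with 95% exact binomial intervals. Tnc lies at 35.6% and 29.6% in KO1 and KO3, against 60.9% and 69.3% in WT1 and WT2, while for Sparc the wild-type mice lie apart and for Thbs1 the 2 mice of each genotype do.

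Postn, Vim and Fn1 were rare. Postn, which encodes periostin (ENSMUSG00000027750.16, chromosome 3, 54361109 to 54391037, plus strand), had 0 counts in KO1 and KO3 and 211 and 16.2 CPM in WT1 and WT2. It was found in 0 of 73 cells of KO1 and 0 of 54 cells of KO3, against 3 cells of WT1 (4.35%) and 5 of WT2 (5.68%). Taken as 3 cells of the total, a count of 0 allows a share of up to 4.11% in KO1 and 5.56% in KO3. The exact binomial intervals reach 4.93% in KO1 and 6.60% in KO3, and run from 0.906% to 12.2% in WT1 and from 1.87% to 12.8% in WT2. The intervals overlap, but they cover only the sampling of cells within a mouse. With 2 mice per genotype they cannot decide whether the share of cells differed between the genotypes. Of all Postn counts, 71.1% lay in 1 cell of WT1, at 14540 CPM. Against a floor of 3 counts over the group, the summed level was at least 5156-fold lower in the mice labelled Sirt6-/-, a bound that covers the counting of reads and not the sampling of cells. Without WT1 it was at least 797-fold, and without WT2 at least 10390-fold. The 3 Postn cells of WT1 were also the 3 cells with Col6a1, a collagen VI gene on the fibroblast list that was found in no other cell. They had 3743, 4563 and 3712 detected genes, against a median of 7009 in WT1, and Krt14 at 1767, 19710 and 3667 CPM. Each had counts for 2 of the 18 fibroblast markers, and they had counts for 9, 9 and 10 of the 10 keratinocyte markers. The 5 Postn cells of WT2 had no Col6a1 and between 5042 and 6943 detected genes. Whether RNA of other cells had a part in the WT1 cells was not tested.

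Vim, the vimentin gene (ENSMUSG00000026728.9, chromosome 2, 13573927 to 13582826, plus strand), had 7.61 and 0 CPM in KO1 and KO3 and 0 and 11.9 CPM in WT1 and WT2. One mouse of each genotype had it, in 4 cells of KO1 and 6 cells of WT2, and the other had none, so the genotypes overlapped fully. The log2 difference of -0.74 (SE 3.28) changed sign without KO3 and without WT2. The 10 Vim cells had Krt14 between 6342 and 45050 CPM. Counts for Ptprc, the pan-leukocyte gene, were found in 2 of them, 1 in KO1 with Csf1r and 1 in WT2 with Lyz2, Laptm5 and Fcer1g. Only 1 cell of WT2 had both Postn and Vim, with 201 and 410 counts, and it also had 1831 counts of Tnc and 736 of Crispld2.

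Fn1, the fibronectin gene (ENSMUSG00000026193.15, chromosome 1, 71585520 to 71653200, minus strand), had 32 counts in all, 31 of them in 1 cell of KO1. Its level was 0.392 and 0 CPM in KO1 and KO3 and 0 CPM in WT1 and WT2. Against a floor of 3 counts over the group it was at least 12.2-fold higher in the mice labelled Sirt6-/-, on the reads of 2 cells. It did not pass the filter on low counts.

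**Figure D3:**
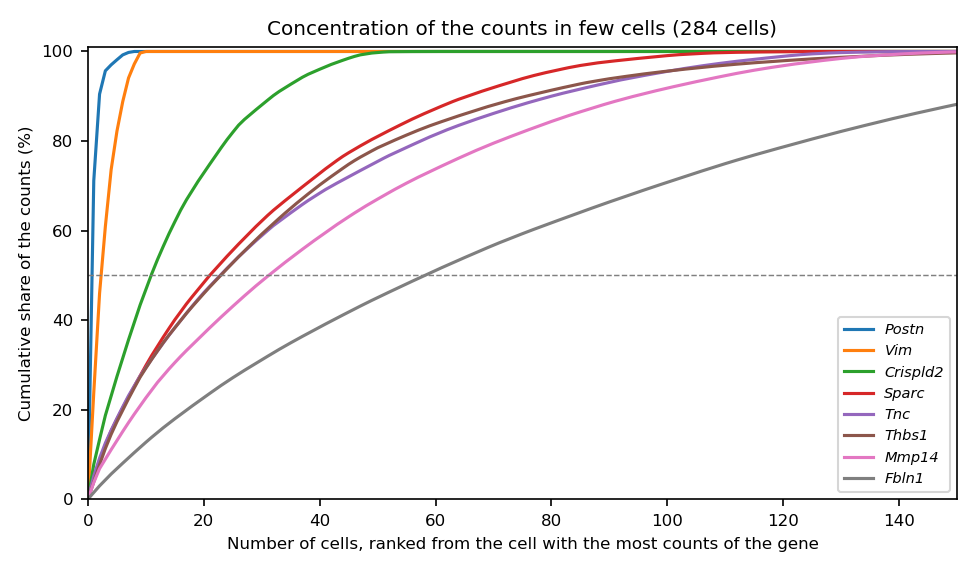
Cumulative share of the counts of 8 genes against the number of cells, ranked from the cell with the most counts of the gene, over all 284 cells. The dashed line marks 50% of the counts, which Postn reaches with 1 cell, Vim with 3, Crispld2 with 11 and Fbln1 with 59.

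The counts of most of these genes sat in few cells. To reach 50% of the counts took 59 cells for Fbln1, 32 for Mmp14, 23 for Tnc, 23 for Thbs1, 22 for Sparc and 11 for Crispld2. It took 3 cells for Vim and 1 for Postn and Fn1. The 5 highest cells held 6.82% of the counts of Fbln1, 13.1% of Mmp14, 17.3% of Thbs1, 17.9% of Sparc, 18.0% of Tnc and 27.4% of Crispld2. They held 82.2% of the counts of Vim and 98.2% of those of Postn.

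Across the 9 genes, 5 (Crispld2, Mmp14, Postn, Sparc and Tnc) had both mice labelled Sirt6-/- below both wild-type mice, as did 17.4% of all 16567 genes tested. None had both above, as did 18.3% of all genes. With the mean of single cells, or after thinning, 4 genes were below, since Sparc was not. By edgeR's quasi-likelihood test with Benjamini-Hochberg adjustment, 0% of all genes (0 of 16567) were called between the genotypes, 848 had an unadjusted p below 0.05, and limma-voom called 0. DESeq2 called 148 of 16245 genes, 113 lower (0.696%) and 35 higher (0.215%). Because the 9 genes were chosen on this contrast, nothing is read from their order here and no test of them is given. The median log2 difference of the 8 that passed the filter on low counts was -1.36 (7 negative, 1 positive), also with Postn at its bound. Over all genes tested it was -0.01, with 50.7% negative. The choice of the genes enters this gap as well, so nothing is read from it.

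Counted per cell, the genes were found in different numbers in the 4 mice. A cell had a median of 3 and 2 of the 9 genes in KO1 and KO3, against 4 and 4 in WT1 and WT2. At least 4 were found in 38.4% and 16.7% of the cells of KO1 and KO3 and in 59.4% and 55.7% of those of WT1 and WT2. Only 4 of the 284 cells had none, 22 had 6 or more, and the highest number was 7, in 2 cells of WT2. Within a mouse, the number of these genes in a cell had Spearman correlations of -0.10 to 0.12 with the number of detected genes and of -0.07 to 0.21 with the total count (54 to 88 cells per mouse), given as a description.

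Tnc, Thbs1, Sparc and Crispld2 were often found in the same cells. For each pair of the 6 common genes, the number of cells with both was set against the product of their shares within each mouse, summed over the mice. Of the 15 pairs, 13 were found together more often than the product, some of them barely. Tnc and Fbln1 had a ratio of 1.0, above the product in 2 mice, and Sparc and Mmp14 had 1.03. Tnc and Sparc were found together in 86 cells, against 68.0 (a ratio of 1.26), Crispld2 and Thbs1 in 53, against 42.2 (1.26), and Tnc and Thbs1 in 122, against 99.9 (1.22). These 3 pairs lay above the product in all 4 mice. For Crispld2 and Thbs1 this rested in KO3 on 1 cell, against 0.241, and in WT2 on 29 cells, against 27.3. No such count for pairs of other genes is given here for comparison, so the 13 of 15 is a description and nothing particular to these genes is read from it. Thbs1 was found in 88.5% of the cells of KO1 with Tnc and 44.7% of those without, and in 50.0% and 13.2% in KO3. In WT1 the shares were 69.6% with Tnc and 34.8% without, and in WT2 93.7% and 64.0%. Pairs of these 4 genes with Mmp14 lay lower, at 1.12 with Crispld2, 1.10 with Thbs1, 1.06 with Tnc and 1.03 with Sparc. This order depended on the setting. With at least 10 counts required, Mmp14 had 1.22 with Crispld2 and 1.11 with Sparc, while Crispld2 and Sparc had 1.09. After thinning, Crispld2 and Mmp14 had 1.18, as did Thbs1 and Sparc. Pairs with Fbln1 lay between 0.984 and 1.04, but Fbln1 was in most cells, and the shares alone hold its ratios to at most 1.15 to 1.37, against 1.38 to 2.12 for the other pairs. After thinning each cell to 500000 counts, 12 of the 15 pairs lay above the product. Thbs1-positive cells had fewer detected genes than Thbs1-negative cells in all 4 mice (5925 and 6723 in KO1, 6449 and 6644 in KO3, 6564 and 7115 in WT1, 5674 and 6368 in WT2). Fbln1-positive cells had more in all 4 mice. Tnc-positive cells had more in KO3 and WT1 and fewer in KO1 and WT2. The part of the number of detected genes in co-detection was not tested.

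**Figure D4:**
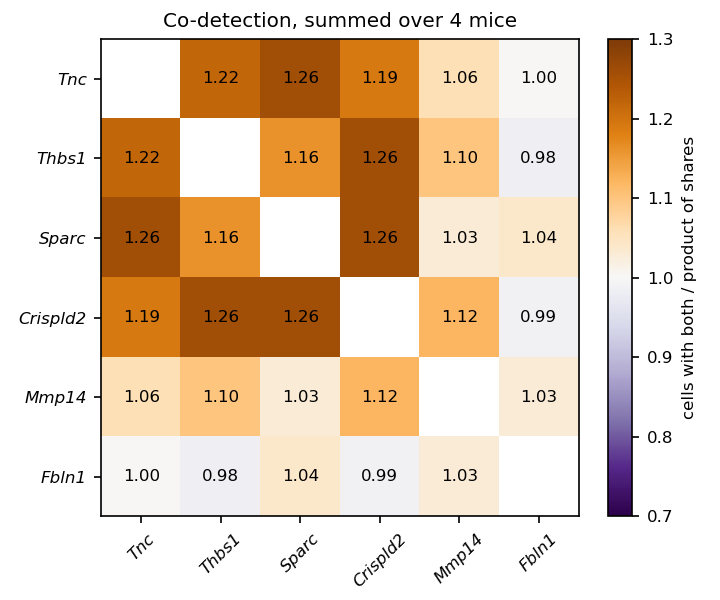
Ratio of the number of cells with both genes to the product of their shares, summed over the 4 mice, for 6 genes. Tnc, Thbs1, Sparc and Crispld2 pair at 1.16 to 1.26, and the row of Fbln1, which was in most cells, lies between 0.98 and 1.04.

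Levels across cells were also compared. Partial correlations of log2(CPM + 1) were taken across the cells of each mouse, after removing trends on total counts and detected genes, for the 5 genes with a count in 20% or more of each mouse's cells. They describe cells that share a mouse and plate, and carry no p. Tnc and Thbs1 had 0.311 and 0.478 in KO1 and KO3 and 0.412 and 0.410 in WT1 and WT2, a mean of 0.403. The mean was 0.336 for Tnc and Sparc, 0.238 for Thbs1 and Sparc, 0.226 for Thbs1 and Mmp14, 0.141 for Tnc and Mmp14, and 0.111 for Sparc and Mmp14. Sparc and Mmp14 had 0.0316 and 0.0415 in KO1 and KO3 and 0.0547 and 0.315 in WT1 and WT2, so WT2 set their mean. With Fbln1 the means of the other 4 lay between 0.0222 and 0.0721.

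Among 8473 other genes that met the same 20% limit, Htra1, which encodes a secreted serine protease that cuts matrix proteins, was the most like Tnc (mean partial correlation 0.513, between 0.370 and 0.632 in the 4 mice). It was also the most like Sparc (0.422) and the fourth most like Thbs1 (0.512). After it, Tnc went with Itgb1 (0.458), the integrin beta 1 chain, Agrn (0.433), the basement membrane proteoglycan agrin, Jag2 (0.432), a Notch ligand, and Ctnnal1 (0.432). Thbs1 went with Lgals9 (0.550), a galectin, Agrn (0.529), Serpinh1 (0.516), the collagen chaperone, and Moxd1 (0.511). Sparc went with Megf6 (0.408), Cav1 (0.364), the caveolin gene, Gm9844 (0.355) and Plec (0.354), a plectin of hemidesmosomes. Among those like Mmp14 were Itgb4 (0.324) and Col17a1 (0.311), both of hemidesmosomes, Cav1 (0.297) and Clic4 (0.286). Fbln1 had lower values throughout, with Chmp5 (0.257), Stom (0.256), Pdia3 (0.255), Hdac3 (0.250) and Akr1a1 (0.249). The 99th percentile over all genes was 0.287 for Tnc, 0.336 for Thbs1, 0.232 for Sparc, 0.198 for Mmp14 and 0.158 for Fbln1. Under 6 other settings (Spearman, another pseudocount and each mouse left out), Htra1 stayed among the 5 for Tnc and Sparc in all 6, as did Lgals9 for Thbs1 and Megf6 for Sparc. Itgb1 stayed for Tnc in 5 of 6, and Itgb4 and Col17a1 for Mmp14 in 5. Others changed with the setting: for Tnc, Agrn and Ctnnal1 stayed in 1 and Jag2 in 0, and for Mmp14, Cav1 and Clic4 stayed in 1. The remaining genes for Thbs1 and Sparc stayed in 3 or 4, those for Fbln1 in 2 to 4, and with Spearman 0 of the 5 for Fbln1 stayed.

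Across cells, Thbs1, Tnc, Sparc and Mmp14 went with basal genes and against suprabasal ones. A score of 5 suprabasal genes (Krt1, Krt10, Sbsn, Krtdap and Spink5), which mark keratinocytes that have left the basal layer, ran against Thbs1 with -0.588 and -0.612 in KO1 and KO3 and -0.462 and -0.539 in WT1 and WT2. The means over mice were -0.550 for Thbs1, -0.402 for Tnc, -0.332 for Sparc and -0.223 for Mmp14, each negative in all 4 mice, and -0.0975 for Fbln1, negative in 3. The score of 8 epithelial collagen and laminin genes had means of 0.545 for Thbs1, 0.479 for Tnc, 0.406 for Sparc, 0.316 for Mmp14 and 0.0791 for Fbln1. The score of 11 basal genes had 0.443, 0.426, 0.356, 0.344 and 0.0935 in the same order. For 12 other matricellular genes it was 0.453, 0.483, 0.403, 0.281 and -0.0376. A score of 7 genes that mark epithelial or mesenchymal states, mostly the epithelial side (Cdh1, Esrp1, Esrp2, Grhl2 and Ovol1, with Snai2 and S100a4), had -0.119 with Tnc, -0.0394 with Thbs1, -0.0616 with Sparc, 0.0837 with Mmp14 and 0.112 with Fbln1. The 15 immediate early genes can rise on tissue dissociation. Their score had 0.184 with Thbs1, 0.0682 with Tnc, 0.0248 with Sparc, 0.116 with Mmp14 and -0.0202 with Fbln1. The score of 10 G2/M genes had -0.0555 with Thbs1, 0.140 with Tnc, -0.0637 with Sparc, -0.129 with Mmp14 and -0.00321 with Fbln1.

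**Figure D5:**
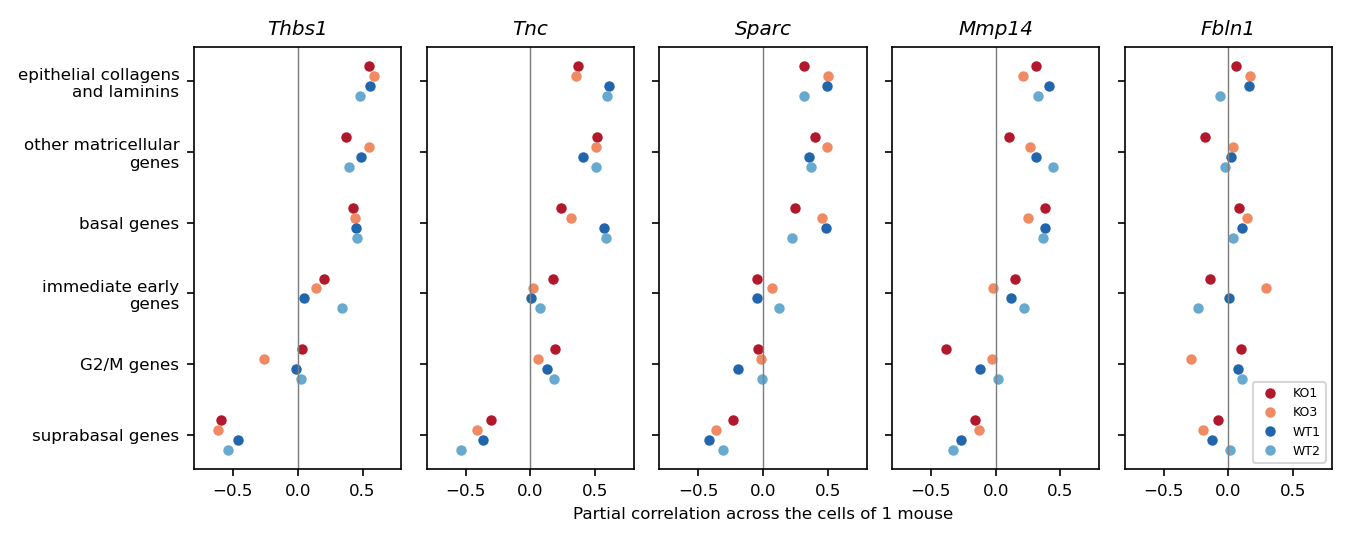
Partial correlation of 5 genes with the scores of 6 gene lists across the cells of 1 mouse, 1 point per mouse (KO1 and KO3 labelled Sirt6-/-, WT1 and WT2 wild type). Thbs1, Tnc, Sparc and Mmp14 lie right of 0 with collagens and laminins in all 4 mice and left of 0 with suprabasal genes, and Fbln1 lies near 0.

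A wider set of genes was compared between the genotypes with the fit over all genes. Its 16 lists cover matrix genes and their receptors, proteases and signals, basal and suprabasal genes, immediate early and G2/M genes, and markers of keratinocytes and 4 other cell types. Of their 194 distinct genes tested, 0 were called by edgeR. At an unadjusted p below 0.05, 19 of the 194 (9.79%) were lower and 2 (1.03%) higher in the mice labelled Sirt6-/-, against 3.49% and 1.63% of all genes. DESeq2 called 3 as lower (Thbs2, Tgfbr1 and Col7a1) and 1 as higher (Spink5). The median log2 difference of the 194 was -0.35, with 71.1% negative, against -0.01 and 50.7% over all genes. The lists were chosen with earlier results of these data known, so these shares are a description, and no enrichment is read from them. The same holds for the counts of signs in each list below, and plate and genotype cannot be told apart in any of them.

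Of 25 other matricellular genes tested, 22 had a negative difference and 3 a positive one, with a median of -0.77. Thbs2, the close relative of Thbs1, had 78.4 and 46.5 CPM in KO1 and KO3 and 142 and 273 CPM in WT1 and WT2 (log2 difference -1.79, SE 0.47, DESeq2 adjusted p = 0.0136, edgeR adjusted p = 0.809). Smoc2, a SPARC family member, had 54.8 and 16.4 CPM in KO1 and KO3 and 73.7 and 283 CPM in WT1 and WT2, and passed neither test (log2 difference -2.40, SE 0.92). Spon2, an F-spondin relative, had 35.3 and 38.1 CPM in KO1 and KO3, against 18.6 and 7.18 CPM in WT1 and WT2 (log2 difference 1.49, SE 0.50), also past neither adjusted threshold. Tnxb and Hspg2 were not analysed here.

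Of 12 epithelial collagen and laminin genes, all 12 differences were negative, with a median of -1.02. Col7a1, the anchoring fibril collagen, had 62.9 and 36.3 CPM in KO1 and KO3 and 116 and 155 CPM in WT1 and WT2 (log2 difference -1.50, SE 0.37, DESeq2 adjusted p = 0.0193, edgeR adjusted p = 0.809). Col12a1 had 15.7 and 21.2 CPM in KO1 and KO3 and 38.7 and 80.3 CPM in WT1 and WT2, a log2 difference of -1.74 (SE 0.48) past neither threshold. Of 25 matrix receptors, 21 differences were negative, with a median of -0.43. Itgb4, the integrin chain of hemidesmosomes, had 638.5 and 525.5 CPM in KO1 and KO3 and 883 and 1213 CPM in WT1 and WT2 (log2 difference -0.89, SE 0.27), and passed neither threshold. The collagen receptor Ddr1 had 49.4 and 36.9 CPM in KO1 and KO3 and 57.5 and 132 CPM in WT1 and WT2.

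Of 29 matrix proteases and inhibitors, 20 differences were negative and 9 positive, with a median of -0.47. The inhibitor Timp3 had 21.4 and 0.829 CPM in KO1 and KO3 and 10.6 and 33.9 CPM in WT1 and WT2, and Serpine2, an inhibitor of serine proteases, had 266.5 and 43.6 CPM in KO1 and KO3 and 137 and 28.4 CPM in WT1 and WT2. Both groups overlapped. Of 18 genes of the TGF-beta pathway, 17 differences were negative, with a median of -0.45. The receptor gene Tgfbr1 had 11.7 and 17.6 CPM in KO1 and KO3 and 35.8 and 48.2 CPM in WT1 and WT2 (log2 difference -1.56, SE 0.37, DESeq2 adjusted p = 0.0439, edgeR adjusted p = 0.809). Ltbp1, which tethers latent TGF-beta to matrix, had 163 and 103 CPM in KO1 and KO3 and 167 and 486 CPM in WT1 and WT2. Of 15 YAP and TEAD target genes, 11 differences were negative (median -0.35), and the matricellular target Ccn1 had 373 and 266 CPM in KO1 and KO3 and 386 and 905 CPM in WT1 and WT2. A list on epithelial and mesenchymal states mixes genes of both, so its balance of signs has no single reading: 7 of its 11 tested genes had a negative difference (median -0.21), and none passed a test. Of its epithelial genes, Cdh1 had 244 and 286 CPM in KO1 and KO3 and 341 and 312 CPM in WT1 and WT2, and Ovol1 had 74.0 and 295 CPM in KO1 and KO3 and 148 and 115 CPM in WT1 and WT2. Zeb2 was not analysed here.

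Most basal and most suprabasal genes lay on opposite sides of 0. Of 11 basal genes, 11 differences were negative (median -0.65), 6 of them at an unadjusted p below 0.05, among them Col17a1 with 1208 and 857 CPM in KO1 and KO3 and 1645 and 3036 CPM in WT1 and WT2. Of 10 suprabasal genes, 7 differences were positive (median 0.71). Spink5, a protease inhibitor of upper epidermis, had 609 and 660 CPM in KO1 and KO3 and 204 and 116 CPM in WT1 and WT2 (log2 difference 1.97, SE 0.31, DESeq2 adjusted p = 4.62e-06, edgeR adjusted p = 0.809). Krt10 went the other way, with 29.7 and 166 CPM in KO1 and KO3 and 77.4 and 531 CPM in WT1 and WT2. Of 17 immediate early genes, 13 differences were negative (median -0.67), and Egr1 had 576 and 355.5 CPM in KO1 and KO3 and 546.5 and 1499 CPM in WT1 and WT2, so WT2 was the highest mouse for Egr1 as for Thbs1. Of 15 G2/M genes, 11 differences were positive (median 0.33), with Mki67 at 111 and 228 CPM in KO1 and KO3 and 114 and 87.6 CPM in WT1 and WT2. The part of epidermal position, cell cycle or dissociation in the levels of the matricellular genes was not tested.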

How the data were processed

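Expected counts of every gene in each cell were deposited. Per the submitters' processing notes, STAR, RSEM and the build mm10 (GRCm38) were used. Strand, annotation and tool versions were not given in the sources used here. Among values above 0, 21.5% had decimals, which RSEM gives where it divides reads between similar genes. The 9 genes and the gene lists were chosen with earlier results of these data known. Gene IDs were matched to symbols with a table of the mouse annotation, and 390 of 54247 rows (0.606% of the counts) had no symbol. Each column is 1 cell, and 0 columns were unused. Wells were sorted as single cells, so doublets were not called.

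The mouse was the replicate (n = 2 per genotype), and p-values measure the spread between these mice. Expected counts were summed over the cells of a mouse, rounded and fitted in R 4.3.3 with edgeR 4.0.16 (TMM, filterByExpr, quasi-likelihood test, two-sided, Benjamini-Hochberg, threshold 0.05, 2 residual degrees of freedom). The code was run on simulated counts as a check. How many true differences the test finds at the spread of these mice (edgeR's common biological coefficient of variation, 0.723) is not given here. A call of 0 genes therefore does not show that no gene differed. DESeq2 1.42.0 and limma-voom (limma 3.58.1) were alternatives, as were RLE scaling, other filters, thinning to 500000 counts and leaving out each mouse or the highest cell. Levels are CPM of the unscaled sums, and kilobases are the union of annotated exons. Levels in a cell are CPM of its own total. Intervals are exact Clopper-Pearson at 95%, and the floor was 3 counts. Named genes were all 9 and, of each list, the 2 lowest and 2 highest log2 differences with a mean of at least 10 CPM, of which the text prints a choice made after seeing the values. Likeness used the 5 highest mean partial correlations, of which 1 gene is not reported here. Gene lists at unadjusted p below 0.05 are named by that p. Scores are sums over the genes of a list, taken within a mouse. Summed were the residuals of log2(CPM + 1) after removing trends on total counts and detected genes, each gene scaled alike. Promoters came from RefSeq. Python 3.11.15 with numpy 2.4.6, pandas 2.3.3, scipy 1.17.1 and matplotlib 3.10.9 was used.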

Additional observations from a re-analysis of the deposited data

How the results depend on the processing

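The count of genes called between the genotypes was 0 with edgeR, 148 with DESeq2 and 1 when only genes with at least 10 CPM in 2 mice were tested. It was also 0 with limma-voom, RLE scaling, no filter on low counts, thinning and each mouse left out. Leaving out KO1 moved the median log2 difference of all genes to -0.12. With 1 mouse left out, the log2 difference of Fbln1 lay between -0.018 and 0.664, and that of Vim between -11.91 and 11.15, with 0.25 without KO3; the lone mouse of a genotype is then assumed to vary like the others. Vim has 0 counts in 1 mouse of each genotype, so these Vim values depend on the prior count and are no bounds. Without WT2 the log2 difference of Tnc was -1.89. The direction held in every setting run for Tnc, Crispld2, Postn, Thbs1, Sparc and Mmp14. Of 15 pairs, 12 to 13 lay above the product of shares in 6 other settings, some of them barely, and the order of the pairs changed between settings. Leaving out each mouse for the pairs, for the likeness of genes and for the Postn bound was chosen after seeing the data. No paired analysis was possible because no label links a mouse of 1 genotype to a mouse of the other. The precision is limited by 2 mice per genotype, and rare genes by 54 to 88 cells per mouse.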
